A study of Mus musculus with 6 samples.

Results

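The comparison is between kidneys whose ureter was obstructed and kidneys of sham-operated mice, whatever the obstructed mice were given: 4 of the 6 libraries come from obstructed kidneys and 2 from sham kidneys. The obstructed libraries were chosen by their treatment label, with no measured value, and were set against sham over the CpG sites covered by at least 10 reads in all 6 libraries. All mice were male wild-type C57BL/6J, and DNA came from kidney cortex and outer medulla together. In both obstructed groups the left ureter was ligated for 7 days. Mice of the first group received saline (called saline 1 and 2 here), and mice of the second received a drug named 5AZA in the labels, 1 mg/kg daily into the peritoneum (5AZA 1 and 2). Sham 1 was the sham operation for the 7-day obstruction, whereas the name of sham 2 ties it to ischemia/reperfusion and to 48 hours. There was no sham group given 5AZA. The series asks which genes become methylated in kidney fibrosis, and the question taken up here is which obstruction effects both the saline and the 5AZA libraries showed.

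Ligation of a ureter raises pressure in the kidney, tubule cells are lost, leukocytes enter and fibroblasts multiply and lay down matrix, so it is a widely used model of renal fibrosis. DNA methylation is the addition of a methyl group to cytosine, in mammals mostly where a guanine follows (CpG). CpG-rich promoters are mostly unmethylated and the rest of the genome is mostly methylated, and methylation of a CpG-rich promoter goes with silence of its gene. The labels give no full name for 5AZA. Aza analogs of cytidine, the usual meaning of that abbreviation, trap DNA methyltransferases, so that methylation is diluted as cells divide. Bulk kidney DNA holds all cell types, and a changed mix of cells and changed methylation within a cell type cannot be told apart here.

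Reduced representation bisulfite sequencing reads the ends of short fragments cut at CCGG. The level of a site is the share of its reads that were methylated. Covering reads summed over CpG sites ranged from 37728517 in sham 2 to 76730132 in saline 1, and 943307 of 2134823 sites met the minimum in all 6 libraries. At those sites the median coverage was 31 reads in sham 2 and 47 to 65 reads in the other 5 libraries. Sham 2 stood below sham 1 at most levels of methylation, so differences are also given against each sham library alone where these were far apart. Candidate fragment-end sites made up 11.3% of the shared sites. Their coverage equals the sum of both neighbours' or their level stands far above an unmethylated surrounding, and the protocol of the labels repairs fragment ends with methylated dCTP. Whether libraries of a group came from separate mice is not stated, and every p-value therefore reflects the spread among these samples only, part of which may be technical. For single sites that spread was pooled over all sites tested.

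Averaged over all shared sites, obstructed and sham kidneys were not separated. The mean level was 45.3% in saline 1, 45.3% in saline 2, 43.5% in 5AZA 1, 43.1% in 5AZA 2, 44.4% in sham 1 and 42.9% in sham 2. Both 5AZA libraries lay between the sham libraries and both saline libraries lay above them. The obstructed libraries had 44.3% ± 1.19 (SD, n = 4) and the sham libraries 43.7% ± 1.06 (SD, n = 2), a difference of 0.589 points (exact two-sided permutation test, p = 0.467, where 15 splits allow no value under 0.0667). It was -0.157 points when only sham 1 was used and 1.34 points when only sham 2 was used. All 19 autosomes were higher in obstructed kidneys against the mean of both sham libraries, by 0.472 to 0.761 points, and none of the 19 was higher against sham 1 alone. Taken as methylated over all reads, levels were 39.4% and 40.8% in saline, 40.1% and 41.7% in 5AZA, and 41.9% and 38.4% in sham. By that measure every obstructed library lay between the sham libraries, and the difference was 0.341 points.

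What the saline and 5AZA libraries had in common depended on how methylated a site was. The sites were sorted into 7 classes of mean level, taken over all libraries. At the 400838 sites under 5%, the level was 1.82% and 1.86% in saline, 1.66% and 1.68% in 5AZA, 1.56% in sham 1 and 0.708% in sham 2. Here all 4 obstructed libraries were above both sham libraries, by 0.192 points against sham 1 and 1.05 points against sham 2 (exact permutation test, p = 0.0667, the smallest possible, and 0.467 after Benjamini-Hochberg adjustment over the 7 classes). From 20% to 80% the saline libraries were above both sham libraries and the 5AZA libraries were not: in the class of 20 to 40%, saline had 34.3% and 34.3%, 5AZA 27.7% and 26.8%, sham 1 29.0% and sham 2 25.9%. In the class of 80 to 95% the saline libraries had 90.9% and 91.0%, the 5AZA libraries 87.2% and 85.8%, sham 1 90.0% and sham 2 88.5%, so the obstructed groups lay on opposite sides of sham. In the class of 95% or more, saline had 97.9% in both libraries, 5AZA 96.5% and 96.0%, and sham 97.7% and 97.8%. No class other than the lowest had all 4 obstructed libraries on one side of both sham libraries, and adjusted p in those classes was 0.544 to 0.800.

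**Figure D1:**
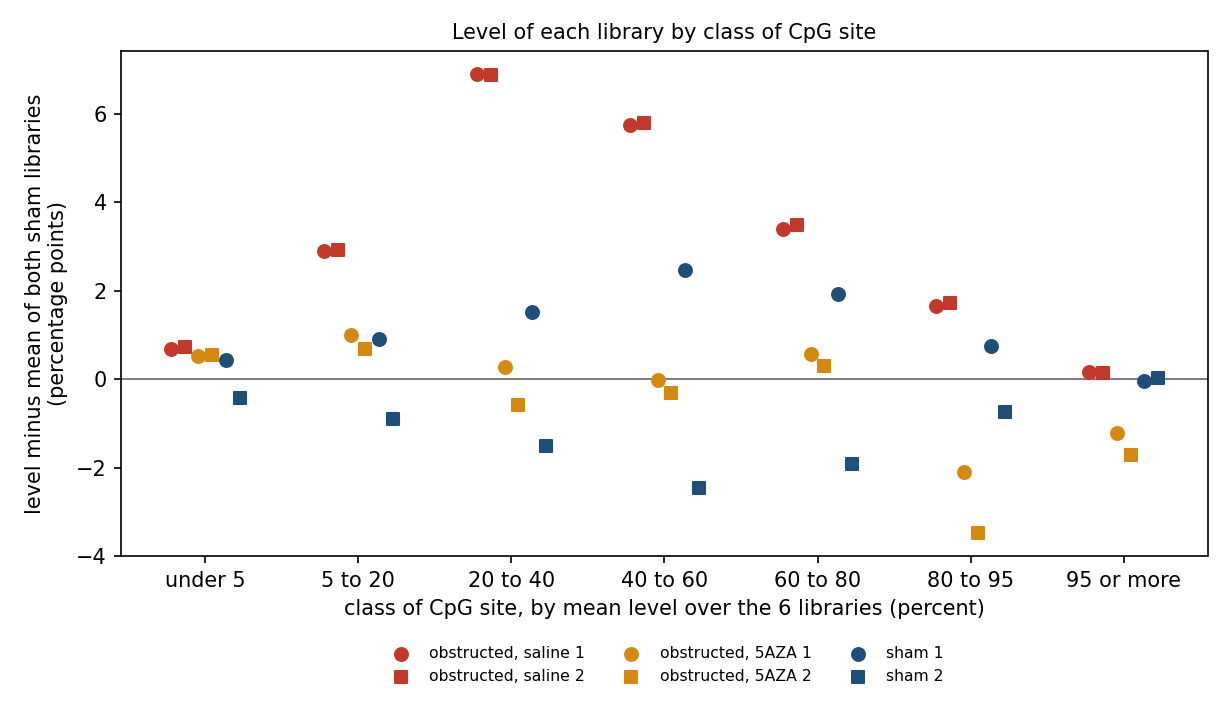
Level of each library minus the mean of both sham libraries (vertical axis, percentage points) in 7 classes of CpG site by mean level (horizontal axis, percent), with 1 point per library. All 4 obstructed libraries lie above both sham libraries only in the class under 5%, and saline and 5AZA part most in the class of 20 to 40%, by 7.04 points.

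Among 1 kb windows that held 3 or more measured sites, none passed the test of obstructed against sham: 0 of 89813 (0%) had an adjusted p under 0.05 with edgeR's quasi-likelihood test and Benjamini-Hochberg adjustment, and the smallest adjusted p was 0.111. At an unadjusted p under 0.05 there were 8406 windows (9.36%), of which 3855 (4.29%) were higher and 4551 (5.07%) lower in obstructed kidneys. The balance turned with the sham library used: without sham 1 there were 8295 higher and 2975 lower, and without sham 2 1552 higher and 4413 lower. limma on log2 ratios also called 0, with 2725 higher and 5872 lower at an unadjusted p under 0.05. All 4 obstructed libraries lay above both sham libraries in 8172 windows (9.1%) and below both in 6518 windows (7.26%). In the same fit and against the same sham libraries, 45 windows (0.0501%) were called for saline minus sham and 1 (0.00111%) for 5AZA minus sham, and 1396 windows (1.55%) were called for 5AZA minus saline.

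The share of windows in which all 4 obstructed libraries were higher was largest among CpG-rich and little methylated windows, and the share in which all 4 were lower was largest among CpG-poor and highly methylated ones. By number, 2236 of the 8172 higher and 3901 of the 6518 lower windows held only 3 or 4 sites. Among windows with 40 or more measured CpG sites, 28.6% had all 4 obstructed libraries above both sham libraries and 0.557% had all 4 below. Their mean difference was 0.994 points, with 0.201 points against sham 1 and 1.79 points against sham 2. Among windows with 3 or 4 sites the shares were 5.34% above and 9.31% below. Windows with a mean level of 95% or more were 1.03% above and 14.8% below, and there saline minus sham was -0.00264 points while 5AZA minus sham was -2.54 points. Windows of 40 to 60% were 14.4% above and 3.25% below, with saline minus sham at 4.77 points and 5AZA minus sham at 0.454 points. Their mean level was 53.6% and 53.8% in saline, 49.3% and 49.5% in 5AZA, 50.8% in sham 1 and 47.1% in sham 2, so that 5AZA lay between the sham libraries and below sham 1. The mean of saline was thus further from sham in the middle of the range, and that of 5AZA at its top. These shares are descriptions, since neighbouring windows share libraries and depth.

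Of the windows with all 4 obstructed libraries on one side and an unadjusted p under 0.05, 2695 (3%) were higher and 3179 (3.54%) lower. In the higher ones the mean level was 49.6% and 48.6% in saline, 45.9% and 45.6% in 5AZA, 41.6% in sham 1 and 39.1% in sham 2. These values chose the windows, so they describe the size only. The 5AZA libraries lay nearer to saline than to sham on average, and the 95% interval of 5AZA minus saline (limma on levels) held 0 in 2088 of the 2695 windows (77.5%). In the lower ones it held 0 in 2449 of 3179 (77.0%), with mean levels of 86.3% and 86.8% in saline, 84.2% and 83.0% in 5AZA, and 91.1% and 91.4% in sham. Over all 89813 windows the same interval held 0 in 72302 (80.5%), so these shares were near that of all windows. An interval that holds 0 does not show that the drug left a window alone.

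The 10 higher and 10 lower windows named here were those of smallest unadjusted p whose libraries did not overlap. All 20 miss the threshold, with adjusted p of 0.111 to 0.173. Their own levels chose them, so their intervals of obstructed minus sham describe size only. The counts of their sites in the same direction follow largely from that choice. Among the 10 higher windows, 9 were called for saline minus sham and none for 5AZA minus sham, and 5AZA was below saline in 9 and called so in 6. The windows are ordered here by the interval of 5AZA minus saline, which held 0 in 3 of the 10 higher and 4 of the 10 lower windows. They were located only by gene starts that could be placed on mm9. Other genes lie between the placed starts on either side of most windows. Examples are Tspan31 and Agap2 at the windows near Cdk4, and Rasal3 at the window near Wiz. A gene named beside a window is a landmark and need not be the nearest gene.

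The first pattern is a higher level in all 4 obstructed libraries with 5AZA close to saline. The window chr7:150645001-150646000 (mm9) holds 58 measured sites and its centre lies 42929 bp downstream of the placed start of Phlda2, in the imprinted cluster that also holds Cdkn1c, a cell cycle inhibitor, and Slc22a18, a membrane transporter. Its level was 38.8% in saline 1, 37.9% in saline 2, 36.5% in 5AZA 1, 35.9% in 5AZA 2, 28.6% in sham 1 and 26.8% in sham 2. All 4 obstructed libraries stood close together and above both sham libraries. The difference of obstructed and sham was 9.59 points (95% interval 6.18 to 13.0) and that of 5AZA and saline was -2.13 points (-6.07 to 1.81), with 47 of 58 sites higher in obstructed kidneys.

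A window on chromosome 1, chr1:193759001-193760000, with 6 sites and 28840 bp downstream of the placed start of Slc30a1, which encodes a zinc exporter, had 87.6% and 85.5% in saline, 84.0% and 89.9% in 5AZA, 68.4% in sham 1 and 72.3% in sham 2. Saline and 5AZA were interleaved, and the lowest obstructed library was above the higher sham library. Obstructed minus sham was 16.4 points (10.8 to 22.1) and 5AZA minus saline was 0.374 points (-6.17 to 6.92). A window on chromosome 2, chr2:29337001-29338000, with 6 sites, had 72.8% and 74.9% in saline, 68.8% and 68.4% in 5AZA, 55.6% in sham 1 and 44.7% in sham 2. The sham libraries differed by more than the obstructed ones did. Its difference was 21.0 points (13.3 to 28.8), or 15.6 points against sham 1 alone.

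The second pattern is a higher level in all 4 obstructed libraries with 5AZA partly returned towards sham. The window chr17:32533001-32534000, with 43 sites and centred 7149 bp upstream of the placed start of Wiz, a zinc finger protein that works with the histone methyltransferases G9a and GLP, had 35.1% and 29.9% in saline, 18.7% and 18.8% in 5AZA, 16.9% in sham 1 and 13.9% in sham 2. The 5AZA libraries were just above sham 1 and far below saline. Saline minus sham was 17.1 points (11.3 to 22.8) and 5AZA minus sham was 3.35 points (-2.39 to 9.10). A pair of windows on chromosome 10, centred 15909 and 27909 bp downstream of the placed start of Cdk4, the cyclin-dependent kinase of the G1 phase, followed this order too. In the nearer one the means were 25.9% in saline, 20.1% in 5AZA and 13.9% in sham. In the farther one saline had 30.5% and 28.5%, 5AZA 19.2% and 20.8%, and sham 16.7% and 14.8%.

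Other windows with this order were chr12:70321001-70322000, centred 7677 bp downstream of the placed start of Pole2, a subunit of DNA polymerase epsilon, and chr7:52496001-52497000, centred 25338 bp downstream of that of Tead2, a transcription factor of the Hippo pathway. The former had 75.0% and 75.6% in saline, 64.5% and 62.0% in 5AZA and 56.6% and 57.1% in sham. The latter had 48.8% and 52.0% in saline, 37.7% and 39.2% in 5AZA and 33.7% and 33.2% in sham. In both, the libraries of a group lay close together and the 3 groups did not overlap. Across the 10 higher windows, 5AZA minus sham as a percentage of saline minus sham ranged from 18.8% to 102%, with a median of 35.8%, and 279 of 306 sites were higher in obstructed kidneys.

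Among the lower windows, the first pattern was seen on chromosome 15. The window chr15:79891001-79892000, with 4 sites and centred 30264 bp upstream of the placed start of Syngr1, which encodes a synaptic vesicle membrane protein, had 64.2% and 63.8% in saline, 71.2% and 60% in 5AZA, 91.2% in sham 1 and 91.0% in sham 2. The sham libraries were alike and every obstructed library was far below them. Obstructed minus sham was -26.3 points (-34.1 to -18.5) and 5AZA minus saline was 1.64 points (-7.38 to 10.7). The window chr7:25172001-25173000, with 5 sites between the placed starts of Zfp94 and Cadm4, had 68.9% and 63.1% in saline, 68.2% and 63.1% in 5AZA, and 82.4% and 81.5% in sham. Its saline and 5AZA libraries paired closely, at -0.386 points (-7.18 to 6.41) apart, against -16.1 points (-22.0 to -10.2) for obstructed minus sham.

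The interval of 5AZA minus saline also held 0 at chr16:36709001-36710000, with 15 sites, and at chr5:92747001-92748000. The former had 82.6% and 84.2% in saline, 86.8% and 85.1% in 5AZA, and 94.1% and 91.0% in sham. There obstructed minus sham was -7.87 points (-11.8 to -3.90) and 5AZA minus saline was 2.53 points (-2.05 to 7.12). The latter is centred 8450 bp upstream of the placed start of Sdad1. It had 76.4% and 81.3% in saline, 83.9% and 82.4% in 5AZA and 91.3% and 91.8% in sham. Its 5AZA minus saline was 4.28 points (-0.958 to 9.52). In the other lower windows this interval did not hold 0. At chr8:46095001-46096000 levels were 97.6% and 98.1% in saline, 92.8% and 91.5% in 5AZA and 99.2% and 98.8% in sham. Saline minus sham in that window was -1.14 points and 5AZA minus sham -6.81 points. This was the only one of the 20 windows called for 5AZA minus sham (adjusted p = 0.0146, edgeR). Across the 10 lower windows 5AZA was below saline in 6, and 72 of 76 sites were lower in obstructed kidneys. Without candidate fragment-end sites all 20 windows kept their direction, with adjusted p of 0.564 to 0.583 in edgeR's test. Most of the 20 hold no such site, so their levels could not change. The common dispersion of the fit was 0.01855 in that setting and 0.00632 with all sites. At chr4:116976001, with the same 34 sites, unadjusted p went from 2.6e-06 to 0.0045 (edgeR).

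**Figure D2:**
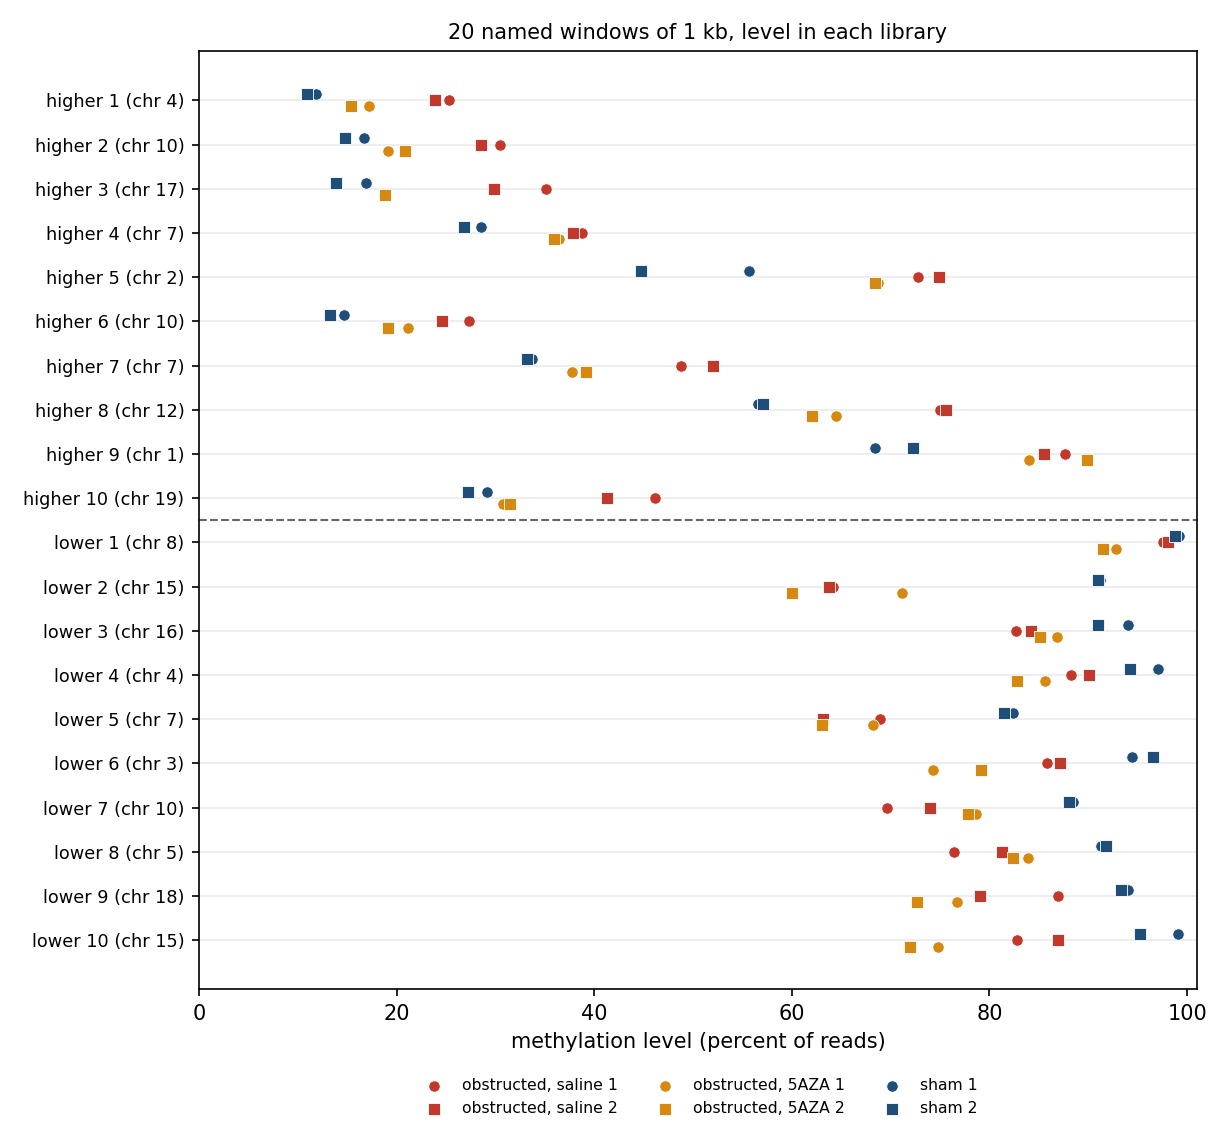
Methylation level (horizontal axis, percent of reads) of the 20 named windows in each of the 6 libraries, with 1 point per library, the 10 higher windows above the dashed line and the 10 lower below it, in order of unadjusted p. In every window the 4 obstructed libraries lie on one side of both sham libraries, and in 9 of the 10 higher windows the mean of 5AZA lies below that of saline.

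**Figure D3:**
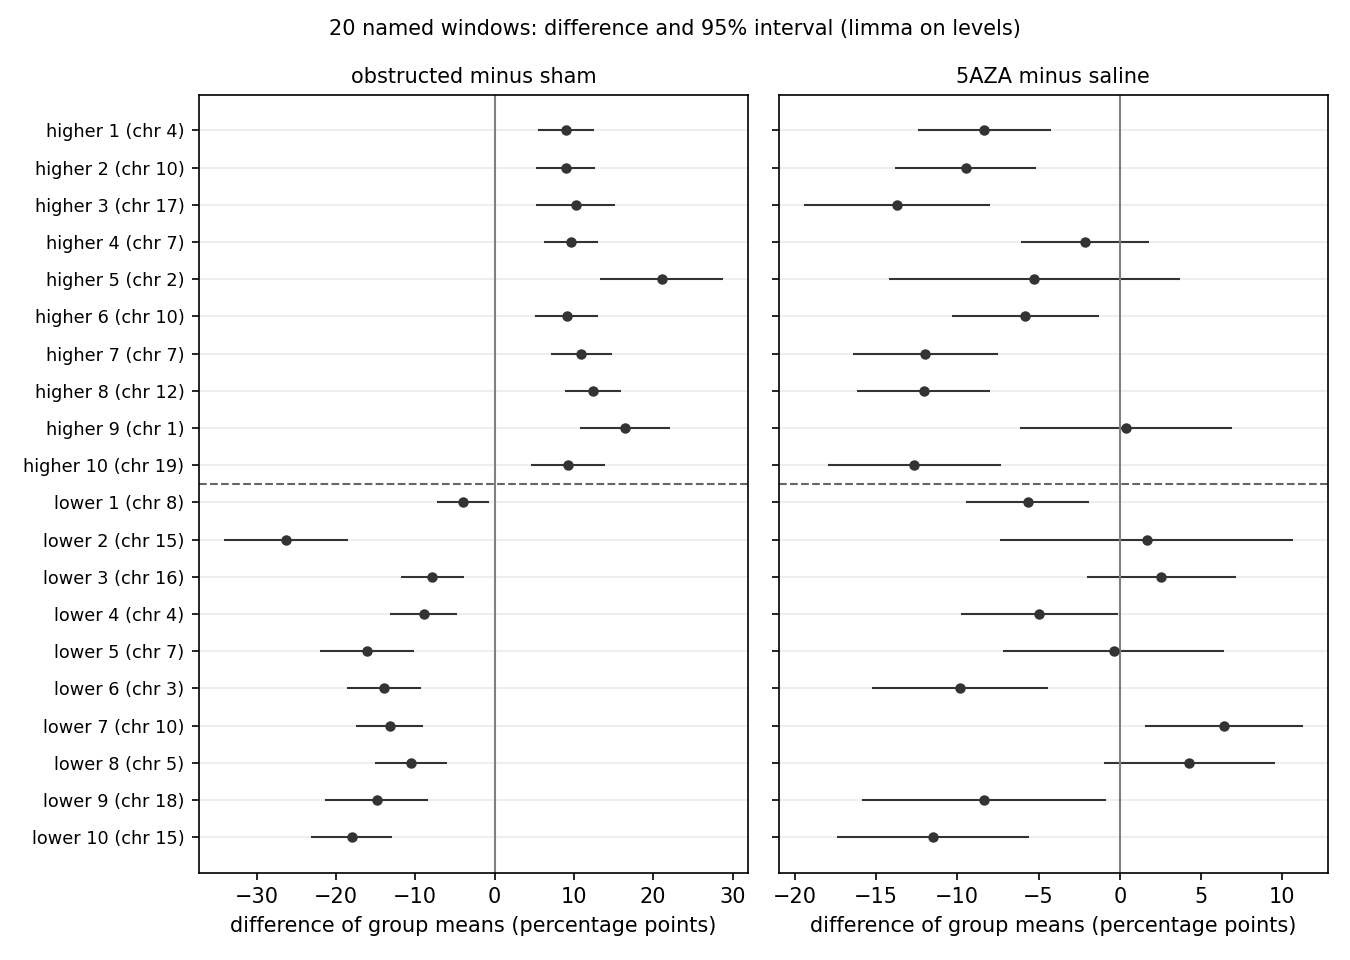
Differences of group means with 95% intervals (horizontal axes, percentage points) for the 20 named windows, obstructed minus sham on the left and 5AZA minus saline on the right, from limma on levels. The right-hand interval holds 0 in 3 of the 10 higher and 4 of the 10 lower windows.

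Single CpG sites gave the only calls. Of 920122 sites tested, 23 (0.0025%) passed an adjusted p of 0.05 in edgeR's test, 10 higher (0.00109%) and 13 lower (0.00141%) in obstructed kidneys. In 11 of them (2 higher and 9 lower) all 4 obstructed libraries lay on one side of both sham libraries, which held for 7.02% of all sites above and 4.66% below. Of the 23, 16 belonged to the deepest 0.1% of sites in at least 1 library, and in 12 sham 2 stood more than 20 points outside the other 5 libraries. The spread was pooled over all sites in this fit, so disagreement between libraries of a group at a single site did not enter its p. The called site chr17:58665694, for example, had 0% in sham 1 and 100% in sham 2. The part of depth and of sham 2 in these calls was not tested. limma called 0 of the sites, with 56319 at an unadjusted p under 0.05. Leaving out 1 library gave 165 calls without sham 1, 21 without sham 2, 12 and 13 without saline 1 and 2, and 8 without either 5AZA library. The 4 called sites that met the non-overlap condition outside the deepest 0.1% are described.

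The site chr8:86716105 had the largest difference of these 4. Its level was 13.0% in saline 1, 3.33% in saline 2, 11.8% in 5AZA 1, 17.2% in 5AZA 2, 70.0% in sham 1 and 72.2% in sham 2, from 18 to 54 reads per library. All obstructed libraries were little methylated where sham was mostly methylated. Obstructed minus sham was -59.8 points (-68.9 to -50.7; edgeR adjusted p = 0.00821) and 5AZA minus saline was 6.35 points (-4.12 to 16.8). The site chr15:79891848 lies inside the chromosome 15 window above and had 54.8% and 55.0% in saline, 72.8% and 42.2% in 5AZA, 94.1% in sham 1 and 100% in sham 2. Its 5AZA libraries lay on either side of saline, and obstructed minus sham was -40.8 points (-64.7 to -17.0; edgeR adjusted p = 0.00114).

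The site chr7:89920038, between the placed starts of Efl1 and Mex3b, was the one higher site, with 20.8% and 48.8% in saline, 55.1% and 51.6% in 5AZA, 11.9% in sham 1 and 10.7% in sham 2. Saline 1 stood well below the other obstructed libraries but above both sham libraries. Obstructed minus sham was 32.8 points (11.1 to 54.5; edgeR adjusted p = 0.00424). The site chr8:97229984, a candidate fragment-end site, had 30.9% and 40.7% in saline, 40.0% and 20.5% in 5AZA and 66.7% in both sham libraries, and its difference was -33.6 points (edgeR adjusted p = 0.0209). The calls depended on single libraries. Without sham 2 adjusted p was 0.672 at chr7:89920038, 0.482 at chr8:86716105, 1.00 at chr15:79891848 and 0.248 at chr8:97229984. Leaving out 5AZA 2 also ended all 4 calls. Without saline 2 or 5AZA 1 the calls at chr7:89920038, chr8:86716105 and chr8:97229984 were lost, without sham 1 those of chr8:86716105 and chr8:97229984, and without saline 1 that of chr8:97229984. With limma all 4 had an adjusted p of 0.808, and the call at chr8:97229984 was also lost with a replicate block (adjusted p = 0.200, edgeR) and with 1 effect of obstruction (adjusted p = 0.138, edgeR).

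Promoters were compared next, since the loss of a gene through promoter methylation is the question the study's title names. A promoter here is the stretch from 250 bases before to 50 bases after a RefSeq start, and 7899 promoters could be placed on mm9 and tested. None of them (0%) passed the adjusted threshold, and the smallest adjusted p was 0.638 (edgeR). At an unadjusted p under 0.05, 577 (7.3%) differed, 503 (6.37%) higher and 74 (0.937%) lower in obstructed kidneys. This excess of higher promoters rested on sham 2: without it 198 were higher and 201 lower, and without sham 1 1276 were higher and 43 lower. The higher ones numbered 267 without saline 1 and 307 without 5AZA 1. All 4 obstructed libraries lay above both sham libraries in 1580 promoters (20%) and below both in 147 (1.86%). The median difference was 1.03 points, with 0.248 points against sham 1 and 1.88 points against sham 2. The median level of a promoter was 14.5% in sham and 15.5% in obstructed kidneys. Without candidate fragment-end sites, a setting chosen after the data were seen, the medians were 1.38% and 2.03% over 7792 promoters and the median difference was 0.681 points.

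**Figure D4:**
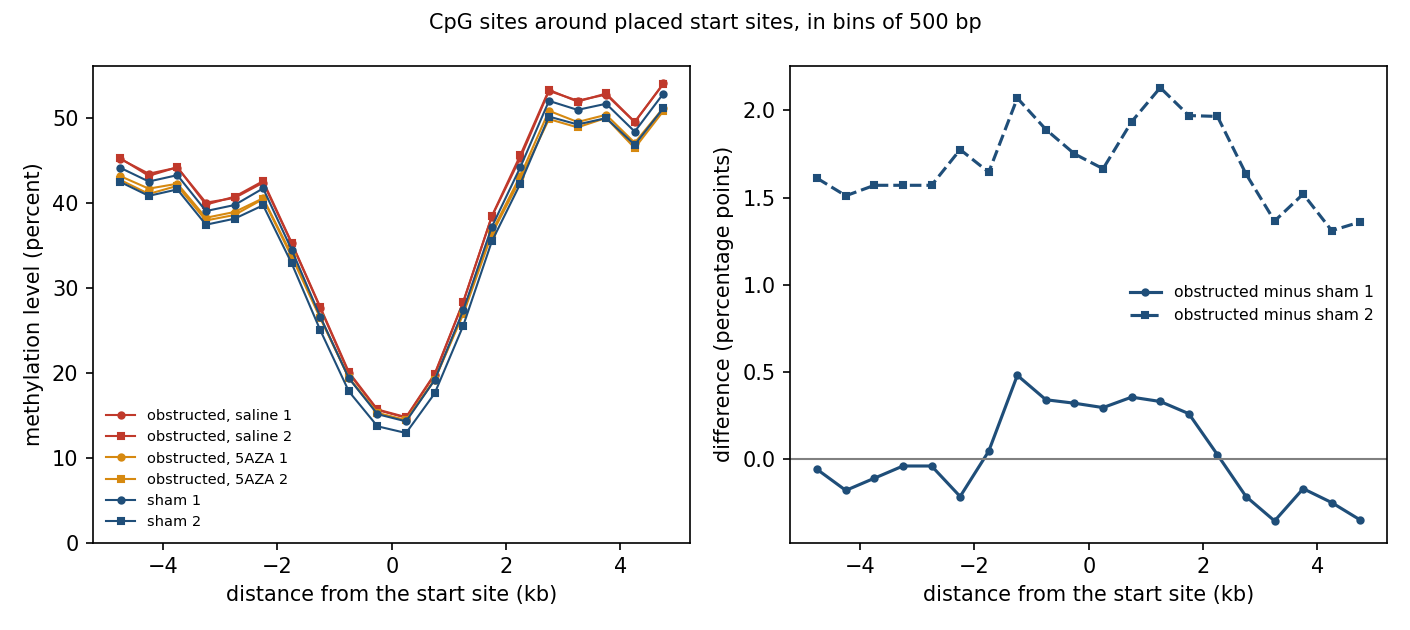
Left, mean methylation level (vertical axis, percent) of each library in bins of 500 bp by distance from 8393 placed start sites (horizontal axis, kb). Right, mean of the obstructed groups minus sham 1 (solid) and minus sham 2 (dashed), in percentage points. Levels are 12.9% to 14.8% in the bin just after the start in all 6 libraries, where the difference against sham 1 is 0.291 points.

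The promoters named here are the 10 higher and 10 lower of smallest unadjusted p among those that did not overlap, and all 20 miss the threshold. Their own levels chose them too, so their intervals of obstructed minus sham describe size only. Without candidate fragment-end sites 3 of the 10 higher and 7 of the 10 lower promoters kept their difference within 1.5 times, and 10 and 8 kept its direction. Most of those that kept their difference hold no such site, so their levels could not change. Tbc1d22a did lose such a site, going from 6 sites to 5. The sequences below show the 250 bases before the start for 6 of the promoters that kept their difference, with Hoxa5 and Plagl1 added for the gene lists. Part of the CpG sites whose reads make up a promoter's level can be seen in them. Sites in the 50 bases after the start count towards the level too and are not shown. The stretches hold 6 of the 12 measured sites at Tbx1 and 7 of 14 at Plagl1. They are from RefSeq (GRCm38.p6), run 5′ to 3′ on the gene's strand, and the capitals mark each CpG measured in all 6 libraries; lower-case cg was not measured so. The positions are on mm9, from matching the spacing of CpG sites. The stretches are Ccdc158 at chr5:93104154-93104403 (minus strand), Tbx1 at chr16:18588993-18589242 (minus strand), Krtcap3 at chr5:31553829-31554078 (plus strand), Yy2 at chrX:154006918-154007167 (minus strand), Il12a at chr3:68495096-68495345 (plus strand), Tbc1d22a at chr15:86107855-86108104 (plus strand), Hoxa5 at chr6:52154587-52154836 (minus strand) and Plagl1 at chr10:12810388-12810637 (plus strand).
Ccdc158: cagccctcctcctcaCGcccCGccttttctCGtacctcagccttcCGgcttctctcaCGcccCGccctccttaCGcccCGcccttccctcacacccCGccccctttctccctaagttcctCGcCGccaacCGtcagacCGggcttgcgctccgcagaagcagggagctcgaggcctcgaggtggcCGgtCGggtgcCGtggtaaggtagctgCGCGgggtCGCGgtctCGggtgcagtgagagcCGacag
Tbx1: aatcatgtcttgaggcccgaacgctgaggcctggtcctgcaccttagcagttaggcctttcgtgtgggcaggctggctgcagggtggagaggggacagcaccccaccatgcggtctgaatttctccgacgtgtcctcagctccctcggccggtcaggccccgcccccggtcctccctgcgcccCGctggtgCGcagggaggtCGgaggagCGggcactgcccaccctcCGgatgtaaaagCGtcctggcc
Krtcap3: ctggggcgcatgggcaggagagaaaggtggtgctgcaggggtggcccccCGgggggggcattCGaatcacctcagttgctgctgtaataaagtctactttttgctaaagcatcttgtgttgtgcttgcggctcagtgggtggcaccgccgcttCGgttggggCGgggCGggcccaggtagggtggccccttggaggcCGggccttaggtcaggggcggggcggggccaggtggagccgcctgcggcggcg
Yy2: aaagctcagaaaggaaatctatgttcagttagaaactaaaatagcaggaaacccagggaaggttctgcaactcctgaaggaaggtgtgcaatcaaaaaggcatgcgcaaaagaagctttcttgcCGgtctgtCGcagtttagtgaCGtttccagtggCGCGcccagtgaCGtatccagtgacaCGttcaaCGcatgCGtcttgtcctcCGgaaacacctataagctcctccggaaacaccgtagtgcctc
Il12a: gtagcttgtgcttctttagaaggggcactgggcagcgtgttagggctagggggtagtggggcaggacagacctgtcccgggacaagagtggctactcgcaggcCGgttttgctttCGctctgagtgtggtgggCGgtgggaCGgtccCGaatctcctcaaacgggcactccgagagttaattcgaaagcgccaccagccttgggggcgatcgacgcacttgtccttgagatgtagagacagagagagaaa
Tbc1d22a: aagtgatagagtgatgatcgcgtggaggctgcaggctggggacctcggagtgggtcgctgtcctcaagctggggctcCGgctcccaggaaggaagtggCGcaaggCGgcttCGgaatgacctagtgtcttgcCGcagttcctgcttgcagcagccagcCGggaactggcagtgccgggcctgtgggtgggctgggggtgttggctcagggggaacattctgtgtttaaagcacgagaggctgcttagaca
Hoxa5: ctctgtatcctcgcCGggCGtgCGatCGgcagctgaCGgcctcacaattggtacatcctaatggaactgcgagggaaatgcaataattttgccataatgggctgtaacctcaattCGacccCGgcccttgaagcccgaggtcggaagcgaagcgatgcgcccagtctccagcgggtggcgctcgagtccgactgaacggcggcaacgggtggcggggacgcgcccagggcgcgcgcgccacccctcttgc
Plagl1: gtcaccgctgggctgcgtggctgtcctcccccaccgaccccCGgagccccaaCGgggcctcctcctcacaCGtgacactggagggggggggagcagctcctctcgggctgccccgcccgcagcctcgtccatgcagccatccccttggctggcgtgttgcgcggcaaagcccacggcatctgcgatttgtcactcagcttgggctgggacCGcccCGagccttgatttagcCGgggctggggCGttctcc

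Among the higher promoters, that of Ccdc158, which encodes a coiled-coil protein, kept its value in the 5AZA libraries most closely. Its 30 measured sites gave 21.0% and 19.7% in saline, 20.6% and 18.8% in 5AZA, 14.8% in sham 1 and 13.9% in sham 2. The 4 obstructed libraries lay close together and above both sham libraries. Obstructed minus sham was 5.61 points (3.11 to 8.12; unadjusted p = 4.2e-04, adjusted p = 0.638, edgeR) and 5AZA minus saline was -0.655 points (-3.55 to 2.24).

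The promoter of Tbx1, a T-box transcription factor of pharyngeal and heart development, had 48.6% and 51.2% in saline, 45.3% and 48.6% in 5AZA, 36.2% in sham 1 and 42.3% in sham 2. The 5AZA libraries lay just under saline and above both sham libraries, and the difference was 12.2 points against sham 1 and 6.11 points against sham 2. The promoter of Krtcap3, a membrane protein gene, had 46.4% and 41.9% in saline, 34.7% and 37.9% in 5AZA, and 28.3% and 27.8% in sham. Here 5AZA lay between the others, with 5AZA minus saline at -7.85 points (-12.4 to -3.32). At Trhde, whose enzyme degrades thyrotropin-releasing hormone, levels were 31.6% and 28.6% in saline, 25.4% and 22.8% in 5AZA and 18.5% and 16.4% in sham. Its difference of 9.67 points shrank to 4.85 points once candidate fragment-end sites were left out. The largest difference, 14.6 points at Ofd1, which encodes a protein of centrioles and cilia, was 0.571 points without them, and that of Abhd17b was 0.730 points in place of 6.20 points.

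Among the lower promoters, Yy2, an X-linked relative of the zinc finger factor Yy1, had 94.2% and 96.0% in saline, 87.1% and 89.1% in 5AZA, 97.6% in sham 1 and 97.3% in sham 2. Its 5AZA libraries stood apart from the rest. Il12a, which encodes a subunit of interleukin-12, a cytokine that drives interferon-gamma production, had 76.3% and 83.2% in saline, 85.8% and 80.8% in 5AZA, 91.0% in sham 1 and 95.3% in sham 2. There the saline and 5AZA libraries were interleaved below both sham libraries, and obstructed minus sham was -11.6 points (-17.8 to -5.47; adjusted p = 0.638, edgeR). Tbc1d22a, of a family of Rab GTPase-activating proteins, had 66.8% and 74.3% in saline, 66.3% and 64.1% in 5AZA, and 77.8% and 81.7% in sham. Tnfrsf11a, the receptor RANK, and Ppt2, a lysosomal thioesterase, changed sign without candidate fragment-end sites, from -10.1 to 1.05 points and from -7.39 to 0.564 points. In each direction the interval of 5AZA minus saline held 0 in 8 of 10 promoters.

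**Figure D5:**
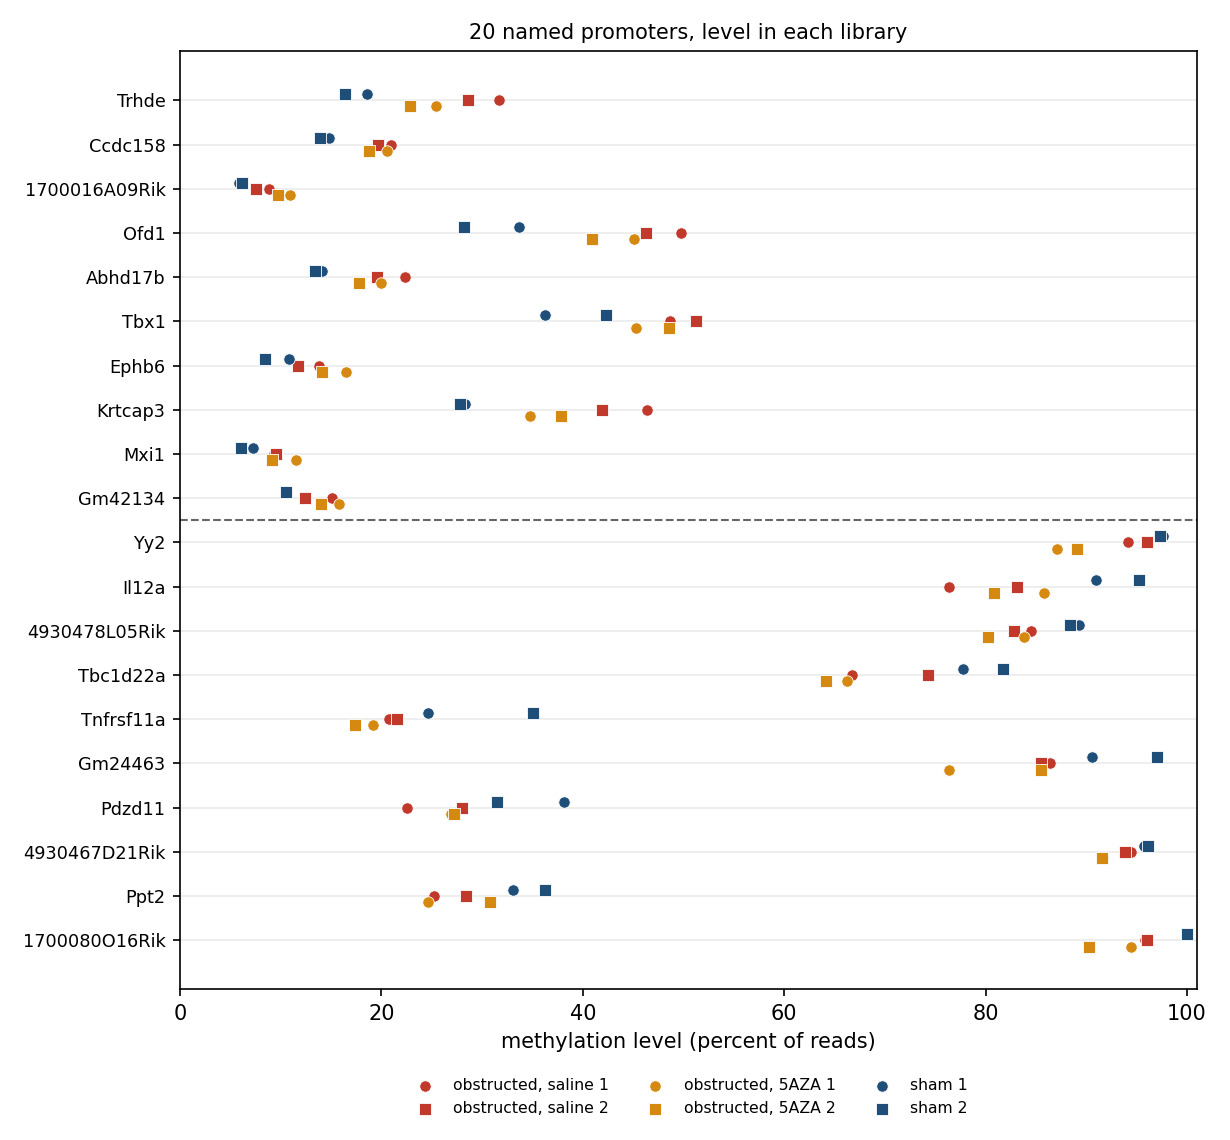
Methylation level (horizontal axis, percent of reads) of the 20 named promoters in each of the 6 libraries, with 1 point per library, the 10 higher promoters above the dashed line and the 10 lower below it. No promoter has an obstructed library between the sham libraries, and saline and 5AZA overlap at Ccdc158 and Il12a, among others.

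Gene lists that bear on kidney, fibrosis and methylation were read against all promoters, of which 0% were called, 6.37% were higher at an unadjusted p under 0.05 and 0.937% lower, 20% lay above both sham libraries in all 4 obstructed libraries and 1.86% below. None of the promoters of the lists was called, and the lists were not read without sham 2, on which the excess of higher promoters rested. Levels in the lists include candidate fragment-end sites unless said otherwise, and without those sites the median level of all promoters in sham was 1.38%. Cell type markers were thinly covered. Of the proximal tubule markers, 2 of 15 were placed and neither passed even the unadjusted test: Lrp2, the endocytic receptor megalin, had 20.3% and 17.7% in saline, 22.2% and 16.5% in 5AZA, and 15.6% and 20.9% in sham, and Slc13a3, a dicarboxylate transporter, lay between 11.2% and 12.2% in all 6 libraries. Without candidate fragment-end sites Lrp2 was between 1.22% and 2.08% and Slc13a3 between 1.16% and 2.31% in all libraries. Both lay near the 1.38% median of all promoters in sham, so these 2 markers could not check the label's tissue. Of 22 leukocyte markers 5 were placed with 6 promoters, 0 passing the unadjusted test, and of 18 fibroblast and myofibroblast markers 2 were placed, Vim (intermediate filament vimentin) and Tgfb1 (transforming growth factor beta), also with 0. Of 9 endothelial markers 2 were placed, and Flt1, a receptor for vascular endothelial growth factor, was higher at an unadjusted p under 0.05, by 4.34 points, or by 0.439 points without candidate fragment-end sites. None of 9 markers of other tubule segments was placed.

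Transcription factors of nephron development had 3 of 10 promoters (7 of 23 genes) higher at an unadjusted p under 0.05 and 5 of 10 with all 4 obstructed libraries above both sham libraries (20% of all promoters), with a median difference of 2.34 points beside 1.03 points over all promoters. Six2, which maintains nephron progenitors, had 19.7% and 20.6% in saline, 18.3% and 16.6% in 5AZA, 15.7% in sham 1 and 13.3% in sham 2. Its 4.28 points became 1.33 points without candidate fragment-end sites. One promoter of Pax2, which specifies the kidney lineage, had 17.7% and 17.6% in saline, 17.1% and 16.6% in 5AZA, and 15.4% and 14.0% in sham, and its 2.54 points became 1.05 points. Without candidate fragment-end sites none of the 3 kept an unadjusted p under 0.05 (edgeR): Six2 had 0.0544, Pax2 0.316 and Esrrg 0.355. The common dispersion of the fit was 0.059 in that setting and 0.00345 with all sites. Unadjusted p also rose where no site was lost. Ccdc158, with the same 30 sites, went from 4.2e-04 to 0.158 (edgeR). The part of the left-out sites in the rise of p was not tested. Of the 5, Six2 alone still had all 4 obstructed libraries above both sham libraries. Another promoter of Esrrg then did so too, with an unadjusted p of 0.00742 (edgeR). The share over all promoters was 19.55% in that setting.

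Of the Notch pathway, a signalling route between neighbouring cells in which ligands such as Jag1 bind Notch receptors, 12 of 19 genes were placed, with 3 higher at an unadjusted p under 0.05 and 3 of 12 above both sham libraries, near the 20% of all promoters. The promoter of the ligand Jag1 had 26.8% and 24.7% in saline, 28.1% and 27.2% in 5AZA, 23.7% in sham 1 and 25.3% in sham 2, from 3 sites, so that the groups overlapped (unadjusted p = 0.417, edgeR). The receptor gene Notch2 had 17.6% and 15.9% in saline, 14.0% and 17.5% in 5AZA, and 14.1% and 9.73% in sham. The target gene Hey2 had 12.2% and 11.7% in saline, 11.0% and 12.4% in 5AZA, and 10.5% and 7.56% in sham. In both genes sham 2 was the lowest library by a clear distance. Without candidate fragment-end sites the difference at Hey2 was 1.27 points in place of 2.80 points (unadjusted p = 0.141, edgeR, with the larger common dispersion). That at Notch2 was 3.74 points in place of 4.33 points.

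Hox genes, which set position along the body axis, had 1 of 10 placed promoters higher at an unadjusted p under 0.05, and that was Hoxa5, the gene of the study's title and the only 1 of 8 antifibrotic genes that could be placed. Its 7 sites had 44.6% in saline 1, 55.1% in saline 2, 36.3% in 5AZA 1, 31.2% in 5AZA 2, 32.3% in sham 1 and 26.2% in sham 2. The saline libraries were the highest, and 5AZA overlapped with sham. Obstructed minus sham was 12.6 points (unadjusted p = 0.0043, adjusted p = 0.638, edgeR), made of 20.6 points for saline minus sham and 4.51 points for 5AZA minus sham. The 1 kb window around it, chr6:52154001-52155000 with 45 sites, had 30.8% and 35.8% in saline, 22.6% and 20.0% in 5AZA, and 21.7% and 18.8% in sham. There saline minus sham was 13.0 points (adjusted p = 0.0419, edgeR), 5AZA minus sham 1.04 points (adjusted p = 0.825) and 5AZA minus saline -12.0 points (adjusted p = 0.0266). The difference at Hoxa5 was therefore not one that both obstructed groups showed.

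Imprinted genes, which carry methylation on the copy from 1 parent, had 3 of 7 promoters higher at an unadjusted p under 0.05, beside 6.37% of all promoters. Plagl1, a zinc finger growth regulator, had 41.3% and 46.4% in saline, 42.6% and 47.7% in 5AZA, 39.5% in sham 1 and 29.8% in sham 2. All 4 obstructed libraries were above both sham libraries, by 5.00 points on average against sham 1 and 14.8 points against sham 2. Igf2r, the receptor that clears insulin-like growth factor, had 41.9% and 47.2% in saline, 35.1% and 31.9% in 5AZA, and 34.1% and 22.8% in sham, so 5AZA 2 lay between the sham libraries. Without candidate fragment-end sites none of the 3 kept an unadjusted p under 0.05 (edgeR, with the larger common dispersion). Plagl1 had 0.124, Igf2r 0.0798 and Grb10 0.173. The differences were then 10.4 points at Plagl1 and 11.7 points at Igf2r. At Grb10 it was 0.917 points in place of 2.05 points. Germline genes, which are methylated in body tissues, had 1 of 7 promoters higher, 0 lower, and 2 of 7 below both sham libraries, beside 1.86% of all promoters and 16.7% of promoters with a mean level of 80 to 95%. Ddx4, an RNA helicase of germ cells, had 74.1% and 67.9% in saline, 72.1% and 73.5% in 5AZA, and 64.4% and 69.2% in sham, and its groups overlapped. Genes of the DNA methylation machinery, the methyltransferases, TET enzymes and their partners, had 0 of 9 promoters that passed the unadjusted test. Dnmt1, the maintenance methyltransferase, had 17.7% and 16.7% in saline, 18.4% and 18.0% in 5AZA, and 19.3% and 17.0% in sham. Without candidate fragment-end sites Dnmt1 was between 0.622% and 2.37% in all libraries.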

How the data were processed

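Bisulfite-converted DNA of kidney cortex and outer medulla was sequenced in 6 libraries, grouped by their treatment label. Per the labels' protocols, DNA was cut with MspI, ends were repaired with methylated dCTP and inserts of 40 to 120 and 120 to 220 bp were kept. Bowtie and the build mm9 are given by the submitters' processing notes. How reads were trimmed and methylation was called is not given in the sources used here. Each deposited file has no header and lists CpG sites with the authors' counts of covering and of methylated reads and the fraction methylated that the authors deposited beside them. Levels were computed as methylated over covering counts and printed in percent.

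Sites with at least 10 reads in all 6 libraries were used, alone, as sums over windows (1000 bp, 3 sites or more) or as sums over promoters. edgeR 4.0.16 in R 4.3.3 (glmQLFit, glmQLFTest) was fitted to methylated and unmethylated counts with an intercept per library and an effect per group, so that 3 groups shared 1 common dispersion. The contrast was the mean of saline and 5AZA minus sham, with p-values adjusted by Benjamini-Hochberg over all features and a threshold of 0.05. Intervals of 95% came from limma 3.58.1 on levels. Global levels used exact permutation tests. Tests that share the sham libraries are not independent of each other.

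A change counted as shared when called, when all 4 obstructed libraries lay on one side of both sham libraries, and when saline and 5AZA differed from sham in the same direction. Named windows and promoters were the 10 largest shared differences each way, filled by smallest unadjusted p among those not overlapping, and named sites up to 5 each way outside the deepest 0.1% in any library. The comparison, the lists and the members were chosen with earlier results of these data known. No mm9 annotation was used. Of 32851 RefSeq promoter sequences, 17116 had enough CpGs and 9007 were placed by matching the spacing of at least 7 CpG positions, and 99.5% of placed promoters agreed in shift with a neighbour, while 105 mirrored sequences were placed. Exons and introns were not analysed here.

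Candidate fragment-end sites were of 2 kinds. In the first, coverage differed by no more than 5% from the summed coverage of the sites on either side, which had to be no more than 220 bp away and to hold 10% or more of that coverage. In the second, a level of 30% or more stood in a window of 10 or more sites whose median was below 5%. The edgeR fits were tested on simulated data, with 100 features changed at each size. The window test called 39% of changes of 10 points and 91% of changes of 20 points among 89811 windows, the promoter test 88% and 100% among 7899 promoters, and the site test 0% and 6% among 89231 sites. Simulated libraries had equal spread, all features shared 1 dispersion, and neither an offset of sham 2 nor a drug effect was put in. Only rises were simulated, at features of low to middle level, and no falls from high levels. These shares therefore need not hold for the real features. The alternatives were 1 effect of obstruction, limma on log2 ratios with 1 added, Fisher's exact test, coverage of 5 or 20, windows of 500 bp, 5 sites, autosomes, a difference of 10 points, no deepest sites, no candidate fragment-end sites, a replicate block and each library left out. Where that leaves 1 library in a group, it is assumed to vary like the others. Reads are not known to be separate molecules, so counts overstate precision. Python 3.11.15 with scipy 1.17.1, numba 0.67.0, pandas 2.3.3 and numpy 2.4.6 was used for tables.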

Additional observations from a re-analysis of the deposited data

Results flagged for a closer look

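In 7 of the 20 named windows saline and 5AZA differed from each other in the test of 5AZA minus saline (edgeR, adjusted p under 0.05). No sham group was given 5AZA. An effect of the drug in any kidney and an altered effect of obstruction therefore cannot be told apart in this test. In percentage points, 5AZA minus saline was -8.33 at chr4:116976001, -9.49 at chr10:126528001, -13.7 at chr17:32533001, -12.0 at chr7:52496001, -12.05 at chr12:70321001, -12.6 at chr19:7497001 and -5.67 at chr8:46095001. The first 6 are among the higher windows and the last is among the lower ones, where 5AZA lay further from sham than saline did.

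At 2 promoters 1 obstructed library lay apart from the other 3. At Mxi1, a partner of Max that opposes Myc, 5AZA 1 had 11.5% beside 9.17% to 9.49%, and its gap to the nearest library was 0.866 of the range of the 4. At Gm24463, a predicted gene, 5AZA 1 had 76.4% beside 85.5% to 86.4%, a gap of 0.907 of the range. Both pass Dixon's 95% critical value for 4 values. In all 52 groups of 4 libraries were looked at, and chance marks about 1 in 20.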

How the results depend on the processing

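Against the 0 windows called with all libraries, 1 was called at a coverage minimum of 5 (chr16:36709001, adjusted p = 0.0457, edgeR), 45 for saline minus sham alone, 1 for 5AZA minus sham alone, 6533 by Fisher's exact test on pooled counts, which ignores the spread between libraries, and 0 to 3 with 1 library left out (3 without sham 1, 2 without sham 2, 1 without 5AZA 1). Promoter calls were 0 in all 12 alternatives run. The 23 site calls became 13 with 1 effect of obstruction, 0 with limma, 6 without the deepest sites and 8 to 165 with 1 library left out. With 1 library left out the global difference ranged from -0.157 to 1.34 points, that of the class of 60 to 80% from -0.00825 to 3.85 points and that of 80 to 95% from -1.25 to 0.161 points, where the sign turned without sham 2 in the first 2 and without sham 1 in the third. Of 295 values of the named windows, 294 kept their direction and side of the threshold, with Fisher's test counted apart. Of 232 values of the named promoters 228 did, and the rest were Ppt2 at a coverage of 5 (1.46 points), at 20 (3.08) and without candidate fragment-end sites (0.564), and Tnfrsf11a without them (1.05). The cause was not tested. Of 40 values of the named sites, 23 lost their call and 17 kept it.

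Replicate numbers did not pair the libraries: same-numbered libraries correlated at 0.0762, -0.0669 and -0.0829 in their deviations. With the replicate block 0 windows (7938 at an unadjusted p under 0.05), 0 promoters and 20 sites were called. In the simulation, whose libraries and features had equal spread, the test called 39% of windows raised by 10 points and 6% of sites raised by 20 points. Smaller changes, falls, and the part of the origin and depth of sham 2, were not tested.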

Other observations

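The mean level of 15018 shared sites on chromosome X was 44.9% and 45.1% in saline, 43.2% and 43.2% in 5AZA, and 44.3% and 43.1% in sham, so both 5AZA libraries lay near sham 2. On chromosome Y, with 127 sites, it was 83.0% and 84.5% in saline, 79.6% and 80.1% in 5AZA, and 81.5% and 81.3% in sham, where saline was above both sham libraries and 5AZA below both. Of the 23 called sites, 2 were on the mitochondrial genome.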
